A study of Homo sapiens with 2 samples.

Results

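The collagen chains and the enzymes that hydroxylate and cross-link them were followed in SAS cells, a human cell line from a squamous carcinoma of the tongue, and in eSAS cells, which were derived from SAS cells. Probes were taken by the gene name given on the array. They comprised the collagen alpha chains listed there under a COL symbol except COL17A1, the lysyl oxidases LOX and LOXL1 to LOXL4, the lysyl hydroxylases PLOD1 to PLOD3 and the catalytic subunits P4HA1 to P4HA3 of prolyl 4-hydroxylase. This gave 78 of the 41000 probes on the array, for 50 of its 30484 gene names: 63 probes for 39 collagen genes and 15 probes for 11 enzyme genes.

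SAS was the parental line, in DMEM with fetal bovine serum. eSAS was the population left after 5 rounds in which large SAS spheroids were retained on a removable filter, so that it is a selected population of 1 line and carries no introduced gene. Total RNA of the growing cells was labelled with Cy3 and hybridised to 1-colour Agilent arrays, 1 array for SAS and 1 for eSAS. There was no replicate culture or array. The cells could therefore not be compared by a test, and every difference below is a difference between these arrays.

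Collagens are trimers of alpha chains and are sorted by the assemblies they form. The fibrillar types I, II, III, V, XI, XXIV and XXVII build fibrils, types IX, XII, XIV, XVI and their relatives sit on fibril surfaces, type IV forms the sheet of the basement membrane, type VII anchors that sheet to the tissue underneath, and types XV and XVIII are proteoglycans of the basement membrane zone. In the endoplasmic reticulum, prolyl 4-hydroxylase stabilises the triple helix and lysyl hydroxylases prepare lysines for cross-linking, and outside the cell the lysyl oxidases start the cross-links themselves. Squamous epithelium rests on a basement membrane that its own basal cells help to build, whereas most fibrillar collagen of the tongue is made by fibroblasts.

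The processed signal of the scanner software is given below for each array as deposited, and ratios are log2 of eSAS over SAS after division by the 75th percentile of each array, which was 1242 for SAS and 1196 for eSAS. A ratio of 1 is a doubling. A probe was called dim on an array where the software did not find it well above background. Where it was dim on 1 array, the fold is a lower bound set by the lowest signal well above background on that array. Some probes were dim at higher signals, such as 18.7 for a TNXB probe in SAS and 20.0 for COL9A1 in eSAS. The bound is therefore nominal, and the true fold may be smaller. Of the 78 probes, 45 were well above background on both arrays, 6 were dim on 1 of them, 26 were dim on both, and 1 of the COL12A1 probes was left out because its spot was marked non-uniform on the SAS array. The 51 probes with a value stood for 38 of the 50 genes. Over the 211 probes on the whole array with replicate spots, the SD of the log2 ratio among spots of a probe had a median of 0.039. It was 0.17 for the 20 of these probes with a mean signal under 100 and 0.037 for the 191 brighter ones. This is technical spread within the arrays and leaves out any spread between cultures.

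Keratinocyte markers were measured throughout, and markers of fibroblasts, endothelium and immune cells in part. Among 12 markers of keratinocytes, the 11 with a usable spot were well above background on both arrays, including the basal keratin KRT5 (22037 in SAS and 13677 in eSAS), the squamous transcription factor TP63 (16638 and 12106) and the adhesion molecule EPCAM (40809 and 40413). The summed signal of this list was 122503 in SAS and 90245 in eSAS, and the median ratio of its 14 probes was -0.44. Both probes of the basal keratin KRT14 were at least 2-fold lower in eSAS (1.97% of all probes), with ratios of -6.58 and -1.23 and SAS signals of 8749 and 3136. At 1.5-fold, 5 of the 14 probes were lower and 2 were higher, against 6.12% and 4.43% of all probes. The higher ones were both probes of DSC3 (0.70 and 0.75). Of the 12 fibroblast markers, DCN, MFAP5, PDGFRA, PDGFRB, POSTN and TCF21 were dim on both arrays, the summed signal was 3814 in SAS and 3579 in eSAS, and the spot for FAP was marked. Those measured on both arrays were THY1 (2667 in SAS and 2556 in eSAS), ACTA2 (544 and 567), VIM (278 and 177 at the brighter of its probes) and DPT (105 and 102). LUM, a proteoglycan of collagen fibrils, had signals of 3.21 in SAS, which was dim, and 29.6 in eSAS, at least 2.40-fold higher by the nominal bound. PECAM1, KDR, TEK and EMCN of 6 endothelial markers were dim on both arrays, as were the immune markers PTPRC, CD3E and ITGAM. VWF (86.0 and 77.1), CD68 (717 and 752) and CD14 (215 and 233) were measured on both arrays. The summed signals were 129 and 117 for the endothelial and 960 and 1022 for the immune list, in SAS and eSAS. The part of these shifts in the collagen values was not tested, and in RNA of whole cultures fewer cells that express a gene cannot be told apart from less RNA per cell.

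Several collagens differed between the arrays, mostly downwards in eSAS, and of the enzymes LOX alone reached 1.5-fold. The SD of the ratios was 0.71 over the 45 member probes measured on both arrays and 0.36 over all probes measured on both. At 2-fold, 4 of the 51 probes were higher in eSAS (7.84%) and 4 were lower (7.84%), against 1.83% higher and 1.97% lower of all 28439 probes. The higher ones were both COL13A1 probes, COL15A1 and LOX, and the lower ones were both COL5A1 probes, COL4A5 and COL4A6. At 1.5-fold, 8 were higher (15.7%) and 12 lower (23.5%), against 4.43% and 6.12% of all probes, and 31 lay within 1.5-fold. All 12 lower probes belonged to collagens, as did 7 of the 8 higher ones, where collagens supplied 38 of the 51 probes with a value. The median ratio over the 32 collagen probes measured on both arrays was -0.28, with 21 below 0 and 11 above. Over the 13 enzyme probes it was 0.11, with 3 below 0 and 10 above, and over all 26659 probes measured on both arrays it was -0.0039, with 50.8% below 0. Without scaling between the arrays, the 2-fold counts were 3 higher and 6 lower. With another background correction, normexp with an offset of 50 on the mean pixels, the counts were 21 higher and 3 lower with all spots in its fit, and 0 higher and 3 lower once spots with a marked, uneven local background were dropped. The offset is added to the corrected signals of both arrays, which by itself shrinks the ratios of faint probes. With all spots, faint probes that hardly differed nevertheless rose, such as the fainter LOXL4 probe, from -0.027 to 2.63. The median ratio over all probes was 0.53 in that setting. It was -0.0088 once the 26 spots with a marked local background were dropped. Normexp values with all spots given below carry this shift over the whole array.

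Brightness bears on how firmly these counts can be read. Among member probes measured on both arrays, 29 had a mean signal of at least 100. Of these, LOX was at least 2-fold higher and COL5A1, COL4A5 and COL4A6 were lower, against 0.472% higher and 0.887% lower of the 20965 probes this bright. At 1.5-fold, 3 of the 29 were higher and 8 lower, where the background was 1.88% and 4.06%. Of the 16 dimmer ones, 2 were at least 2-fold higher and 0 lower (background 2.65% and 2.62% of 5694 probes), and 4 and 3 passed 1.5-fold (background 7.53% and 7.92%). With probes averaged per gene, 3 of 38 genes were at least 2-fold higher, COL13A1, COL15A1 and LOX, and 2 were lower, COL5A1 and COL4A6, against 2.01% and 2.14% of all 20865 genes.

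**Figure D1:**
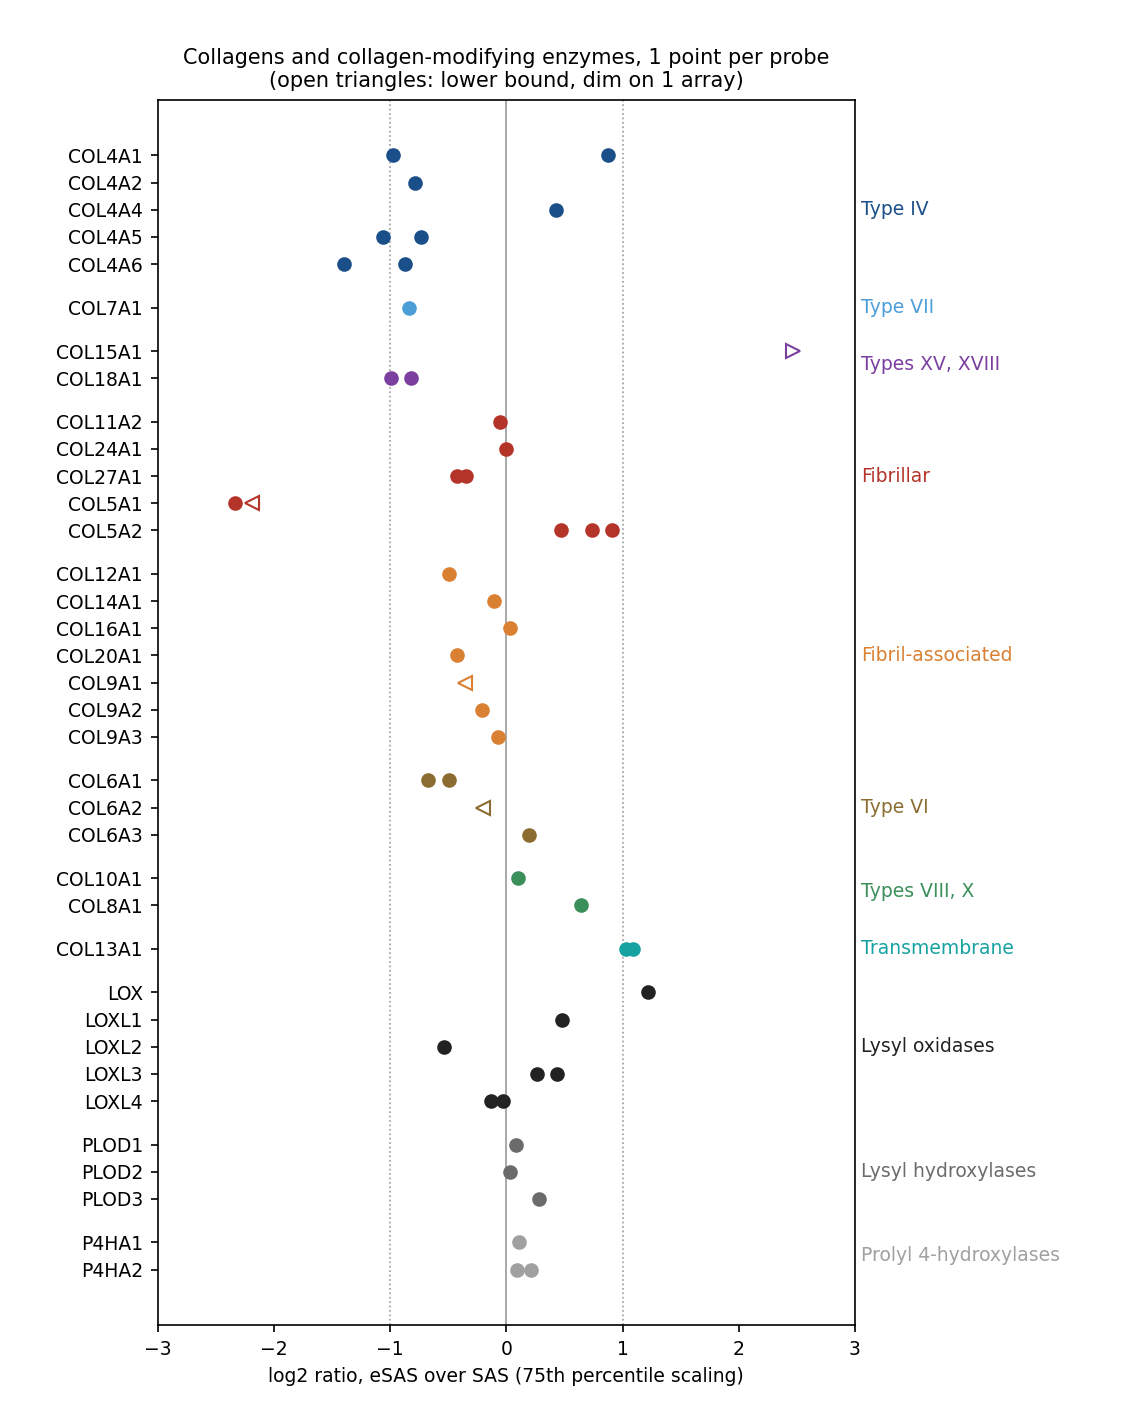
Log2 ratio of eSAS over SAS (x axis) for each collagen and enzyme gene (y axis), 1 point per probe, grouped by the assembly or activity of the protein. Filled circles are probes well above background on both arrays, open triangles are lower bounds for probes dim on 1 array, dotted lines mark 2-fold, and the COL1A1 and COL8A2 probes, whose bound was under 1, are not drawn. The type IV, VII and XVIII collagens lie mostly left of 0, COL5A1 lies farthest left at -2.34, and LOX and COL13A1 lie right of 1.

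The chains of the basement membrane were mostly lower in eSAS. Of the 8 type IV probes measured on both arrays, 6 were at least 1.5-fold lower and 1 was at least 1.5-fold higher (6.12% and 4.43% of all probes), with a median ratio of -0.83. Type IV genes lie in pairs whose members are read in opposite directions from a shared stretch, and that stretch measured 126 bases between the starts of COL4A1 and COL4A2, 379 between COL4A6 and COL4A5 and 418 between COL4A4 and COL4A3 in RefSeq's annotation of GRCh38.p14. The COL4A1 and COL4A2 stretch is printed because both genes of that pair were lower by a similar size at their bright probes. It lies at chr13:110307158-110307283 and is written on the strand of COL4A2. Capitals mark a CCAAT box (CCAAT) and a GC box (GGGCGG), searched on both strands.
COL4A1 and COL4A2: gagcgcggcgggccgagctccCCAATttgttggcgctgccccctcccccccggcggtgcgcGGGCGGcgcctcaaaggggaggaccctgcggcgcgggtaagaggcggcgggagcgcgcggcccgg

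COL4A1 and COL4A2 encode the chains of the most widespread type IV trimer. The COL4A2 probe (chr13:109963262-109963321 in hg18, the build of all probe positions given here) had a signal of 30511 in SAS and 17038 in eSAS, 1.72-fold lower (-0.79). The COL4A1 probe at chr13:109600348-109600407 had 1681 in SAS and 822 in eSAS, 1.97-fold lower (-0.98). Both differences were many times the replicate spot SD of bright probes. The other COL4A1 probe, whose match runs over an intron from 109624341 to 109624847, went the other way, from 32.7 in SAS to 57.8 in eSAS, 1.84-fold higher (0.88). The COL4A1 probes thus disagreed in direction, and their mean of -0.050 describes neither. The higher ratio was larger than the 0.17 by which replicate spots of other probes under 100 scattered. Under normexp it was 2.63 with all spots and 0.32 without the marked local backgrounds.

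COL4A5 and COL4A6, the pair on the X chromosome, form a trimer found in basement membranes of squamous epithelium. COL4A5 had 1707 in SAS and 787 in eSAS at chrX:107827236-107827295, 2.09-fold lower (-1.06), and 85.3 and 49.4 at its dimmer probe, 1.66-fold lower (-0.73). The remaining COL4A5 probe was dim on both arrays. COL4A6 had 883 in SAS and 322 in eSAS at chrX:107285706-107285765, 2.64-fold lower (-1.40), and 142 and 74.6 at its other probe, 1.83-fold lower (-0.87). All 4 measured probes of this pair were therefore lower in eSAS by at least 1.5-fold, against 6.12% of all probes. The brighter COL4A6 spot lay in row 461 of the array, within rows 459 to 510 where most of the spots marked non-uniform on the SAS array lay. Its other probe, in row 202, lay outside them. Normexp with all spots gave -0.83 for the bright COL4A5 probe and -0.20 for the bright COL4A6 probe, and without the marked local backgrounds -1.01 and -1.18. The second probes of COL4A5 and COL4A6 turned higher in eSAS under normexp with all spots (2.21 and 1.71) and were under 1.5-fold lower without the marked local backgrounds (-0.33 and -0.45). The sequences before both starts are printed because all measured probes of the pair were lower. They overlap, each is written 5′ to 3′ on the strand of its gene, and they lie at chrX:108439588-108439837 (COL4A5, plus strand) and chrX:108439459-108439708 (COL4A6, minus strand) in GRCh38.p14. Capitals mark CCAAT in either orientation, the only motif of those searched that was found here.
COL4A5: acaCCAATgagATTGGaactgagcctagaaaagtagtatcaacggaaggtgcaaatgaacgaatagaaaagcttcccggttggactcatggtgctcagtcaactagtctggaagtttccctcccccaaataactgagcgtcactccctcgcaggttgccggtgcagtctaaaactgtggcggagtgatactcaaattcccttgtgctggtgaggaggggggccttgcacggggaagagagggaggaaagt
COL4A6: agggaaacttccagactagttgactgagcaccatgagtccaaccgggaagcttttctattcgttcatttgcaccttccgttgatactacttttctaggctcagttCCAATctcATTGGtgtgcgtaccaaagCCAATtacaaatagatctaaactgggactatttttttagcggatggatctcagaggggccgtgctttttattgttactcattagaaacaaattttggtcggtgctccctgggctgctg

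The last pair, COL4A3 and COL4A4, belongs to the specialised membranes of kidney, lung and cochlea. Both COL4A3 probes were dim on both arrays. COL4A4 had 30.98 in SAS and 40.1 in eSAS, a ratio of 0.43 at a signal where the replicate spots of other probes scattered by 0.17. The lower type IV signals were thus those of COL4A1, COL4A2, COL4A5 and COL4A6, the genes with bright probes.

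Type VII and type XVIII were lower as well. COL7A1, the chain of the anchoring fibrils, had 1550 in SAS and 834 in eSAS (chr3:48577405-48577592), 1.79-fold lower (-0.84). COL18A1, whose C-terminal fragment is endostatin, had 3428 in SAS and 1662 in eSAS (chr21:45757986-45758045), 1.99-fold lower (-0.99), and 102 and 55.4 at its dimmer probe, 1.77-fold lower (-0.82). The ratios of the COL18A1 probes were closer to each other than to 0. The brighter one lay in row 478, among the rows with the marked spots, and the dimmer one in row 67, outside them. Under normexp the dimmer one turned to 2.16 with all spots and was -0.33 without the marked local backgrounds. COL15A1, the closest relative of COL18A1, had 3.06 in SAS, which was dim, and 68.4 in eSAS (chr9:100872586-100872645), at least 5.54-fold higher by the nominal bound. Its median pixel intensity before background correction was 45.5 in SAS and 116 in eSAS. The other COL15A1 probe was dim on both arrays, so the difference rests on 1 spot of each array. Under normexp without the marked local backgrounds the COL15A1 ratio was 0.80, which is under 2-fold.

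The fibrillar collagens held the lowest measured ratio of the set beside higher ratios for a partner chain of the same collagen type. COL5A1 and COL5A2 encode chains of type V collagen, which nucleates and narrows collagen fibrils. COL5A1 had 566 in SAS and 108 in eSAS (chr9:136874373-136874432), 5.05-fold lower (-2.34), the lowest ratio among member probes measured on both arrays. Its other probe, at chr9:136873884-136873943, had 71.8 in SAS and 10.0 in eSAS, which was dim, at least 4.55-fold lower by the nominal bound. COL5A2 was higher at all 3 probes. They read 1160 in SAS and 1859 in eSAS (0.73, chr2:189607096-189607155), 1505 and 2010 (0.47), and 34.3 and 61.9 (0.91), which are 1.66-fold, 1.39-fold and 1.87-fold. The COL5A1 probe measured on both arrays and all those of COL5A2 thus differed in opposite directions by more than the replicate spot SD. The dimmer COL5A1 probe has only a nominal bound, to which that SD does not apply. COL5A3, the remaining type V chain, was dim on both arrays. Normexp moved the brighter COL5A1 probe to -0.024 with all spots and to -1.90 without the marked local backgrounds. It moved the dimmer one to -0.83 in the latter case, under 2-fold, and left it without a bound above 1 in the former.

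The sequence before the COL5A1 start is printed because COL5A1 had the lowest ratio among members measured on both arrays. It lies at chr9:134641553-134641802 on the plus strand in GRCh38.p14. Capitals mark GC boxes in the reverse orientation (CCGCCC), the first of them directly followed by the reverse of ACGTG, the core of the hypoxia response element.
COL5A1: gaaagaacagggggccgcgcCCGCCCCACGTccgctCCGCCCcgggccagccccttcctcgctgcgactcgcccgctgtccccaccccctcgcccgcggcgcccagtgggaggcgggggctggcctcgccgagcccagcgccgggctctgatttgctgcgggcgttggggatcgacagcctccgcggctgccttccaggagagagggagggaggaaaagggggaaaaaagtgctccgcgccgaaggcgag

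The chains of the fibrillar types I, II and III were at or under the limit of detection. COL1A1, a chain of type I collagen, was spotted 10 times, and over the 8 usable spots its signal had a lowest, median and highest value of 12.2, 15.2 and 17.6 in SAS and 3.03, 4.51 and 10.9 in eSAS. It was well above background at 5 of the 8 spots in SAS and at 0 in eSAS. All 8 spots were lower in eSAS, with a mean ratio of -1.57 ± 0.57 (SD over 8 spots) before any lower limit was set, but the SAS level lay so near the limit that no fold could be bounded. COL1A2, the partner chain, was well above background at 2 of 9 spots in SAS and at 0 in eSAS and was treated as dim on both. COL2A1, COL3A1 and COL11A1 were dim on both arrays at each of their probes. The chains COL27A1 (3038 and 2178, -0.43; 305 and 232, -0.34), COL11A2 (98.2 and 91.2, -0.051) and COL24A1 (24.8 and 23.9, -0.0017) were within 1.5-fold.

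Among the collagens that decorate fibrils, none of the 7 probes with a value reached 1.5-fold. With 4.43% higher and 6.12% lower among all probes, 7 are too few to set this class apart. COL12A1, which links fibrils to the surrounding matrix, was bright, with 10525 in SAS and 7213 in eSAS (-0.49). The left-out spot of its other probe went the other way before background correction, with a median pixel of 1249.5 in SAS, where it was marked, and 2159.5 in eSAS. COL9A3 (7331 and 6708, -0.074) and COL16A1 (3993 and 3928, 0.031) lay close to their SAS level. COL9A2 (-0.21), COL14A1 (-0.11), COL20A1 (-0.42) and COL9A1 (bound of -0.35) had signals under 100 and ratios below 0. COL19A1, COL21A1 and COL22A1 were dim on both arrays.

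Type VI collagen forms beaded filaments around cells. Its COL6A1 chain had 5290 in SAS and 3624 in eSAS (1.41-fold lower, -0.49) and 116 and 70.2 at its other probe (1.59-fold lower, -0.67). COL6A3 had 40.4 and 44.4 (0.19) at the probe that was measured, and COL6A2, at 19.2 and 16.1, was near the limit and 1.15-fold lower by its bound. Only COL6A1 of the 3 chains was bright enough for a firm value. COL8A1, a chain of the short network collagen of vessel and corneal membranes, had 470 in SAS and 708 in eSAS (chr3:100997455-100997514), 1.57-fold higher (0.65). Its partner COL8A2 had 14.5 in SAS and was dim in eSAS at 3.32, which allows no fold. COL10A1 had 131 and 135 (0.098).

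COL13A1, a collagen anchored in the plasma membrane, was higher in eSAS by both probes. Its 10-fold spotted probe (chr10:71388817-71388876) had 8 usable spots, with a lowest, median and highest signal of 25.3, 30.5 and 38.3 in SAS and 50.2, 62.6 and 70.6 in eSAS. The SAS and eSAS spots did not overlap, but they come from 1 array per group and leave out any spread between cultures. How many other probes with replicate spots separate in this way was not counted. The mean ratio was 1.03 ± 0.28 (SD over 8 spots), a 2.05-fold difference, with spots between 0.53 and 1.37. The second probe, spotted once at chr10:71388613-71388672, had 36.7 and 75.4, 2.13-fold higher (1.09). The probes agree within the scatter of the spots, at a signal where ratios of other replicate spots scattered by 0.17. Without the marked local backgrounds, normexp gave 0.37 and 0.60 for these probes, and with all spots 2.71 and 2.70. The other membrane collagens, COL23A1 and COL25A1, were dim on both arrays. The stretch before the COL13A1 start is shown as the promoter of the only collagen gene that was at least 2-fold higher by more than 1 probe. It lies at chr10:69801656-69801905 on the plus strand in GRCh38.p14, and capitals mark a TATA box (TATAAA).
COL13A1: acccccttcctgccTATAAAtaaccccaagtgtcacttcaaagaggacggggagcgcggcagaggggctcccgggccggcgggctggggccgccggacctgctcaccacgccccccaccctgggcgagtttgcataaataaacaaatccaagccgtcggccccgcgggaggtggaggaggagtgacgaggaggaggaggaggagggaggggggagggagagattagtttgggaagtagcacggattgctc

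**Figure D2:**
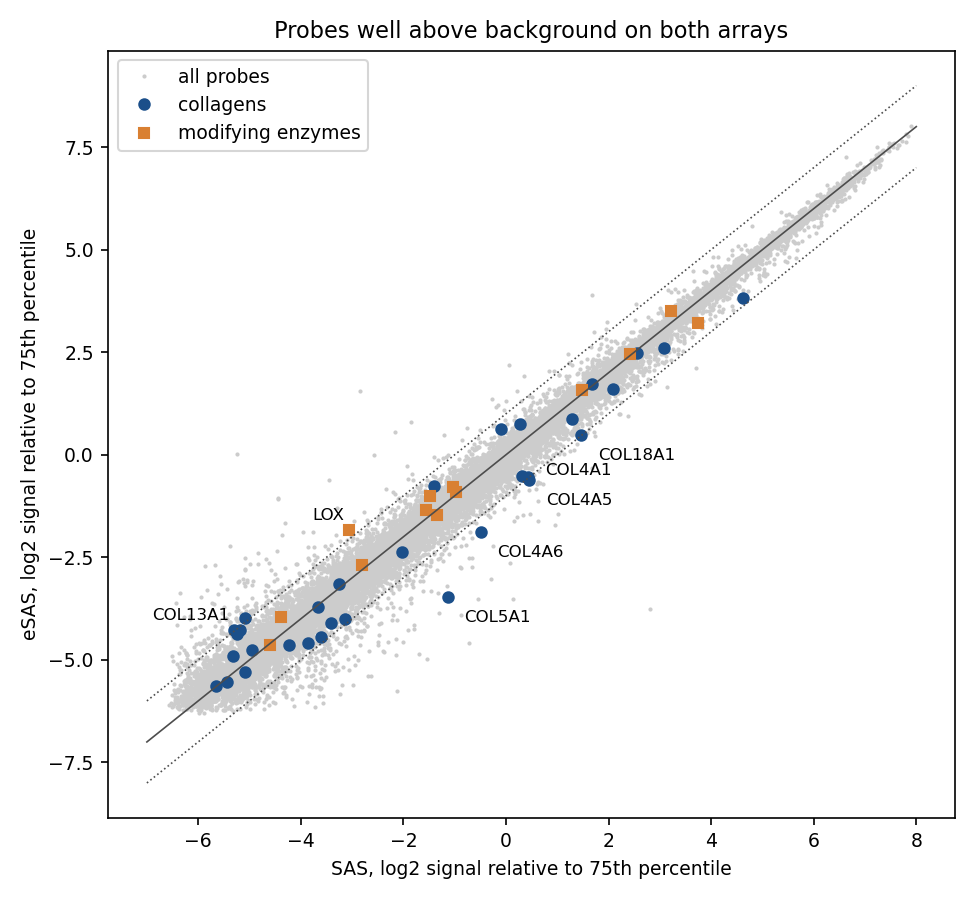
Signal of each probe in SAS (x axis) and eSAS (y axis), as log2 relative to the 75th percentile of the array, for the 26659 probes well above background on both arrays. The solid line marks equal signal and the dotted lines 2-fold; collagen probes are circles and enzyme probes squares, drawn over all probes in grey. COL5A1, COL4A6 and COL4A5 lie below the lower dotted line, COL4A1 and COL18A1 lie on it, LOX and COL13A1 lie above the upper one, and most enzymes lie along the solid line.

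The lysyl oxidases differed from one another. LOX, which oxidises lysines of collagen and elastin and so starts their cross-links, was spotted 10 times, and all 10 spots were usable. Their lowest, median and highest signals were 135, 150 and 158 in SAS and 318, 333 and 350 in eSAS (chr5:121433685-121433744). No SAS spot reached the lowest eSAS spot. The ratio was 1.22 ± 0.054 (SD over 10 spots), 2.33-fold higher in eSAS, with spots between 1.12 and 1.31. Under normexp the ratio was 1.89 with all spots and 0.92 without the marked local backgrounds, just under 2-fold. LOXL2, a relative that also acts on type IV collagen, went the other way. The lowest, median and highest of its 10 spots were 15478, 16822 and 17644 in SAS and 10132, 11253 and 11698 in eSAS. These spots did not overlap between the arrays either, and the ratio of -0.53 ± 0.030 (SD over 10 spots) was 1.45-fold lower, under the 1.5-fold limit. The difference between the ratios of LOX and LOXL2 was thus many times the spread of their spots, which share the arrays and the RNA and say nothing of other cultures. The share of other probes whose replicate spots separate between the arrays was not counted.

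The sequence before the LOX start is printed because LOX had the highest ratio among members measured on both arrays. It lies at chr5:122078260-122078509 on the minus strand in GRCh38.p14. Capitals mark ACGTG in 4 places, in either orientation, a CCAAT box and a GC box.
LOX: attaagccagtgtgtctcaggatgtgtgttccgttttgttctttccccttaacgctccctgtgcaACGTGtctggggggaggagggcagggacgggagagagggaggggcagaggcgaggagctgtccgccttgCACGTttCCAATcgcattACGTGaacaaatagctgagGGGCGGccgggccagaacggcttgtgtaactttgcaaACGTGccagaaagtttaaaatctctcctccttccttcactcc

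ACGTG was found in 18.5% of the 35116 stretches of this length before the starts in RefSeq's table and in 8 of the 40 member genes listed there (20.0%). CCAAT was found in 32.0% of all stretches and 10 members (25.0%), GGGCGG in 42.6% and 22 members (55.0%), and TATAAA in 3763 stretches and 5 members (12.5%). The shares among members were therefore near those of all promoters, and the motifs mark letters in the printed stretches, not bound sites. COL5A2, COL8A1 and COL3A1 were among the members without an entry.

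LOXL1, which serves elastic fibres, had 444 in SAS and 597 in eSAS (1.39-fold higher, 0.48), at a spot among the rows with the marked spots. LOXL3 had 605 and 699 (0.26) and 59.4 and 77.3 (0.44). LOXL4 had 490 and 432 (-0.13) and 51.2 and 48.4 (-0.027). Apart from LOX, no lysyl oxidase thus reached 1.5-fold.

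**Figure D3:**
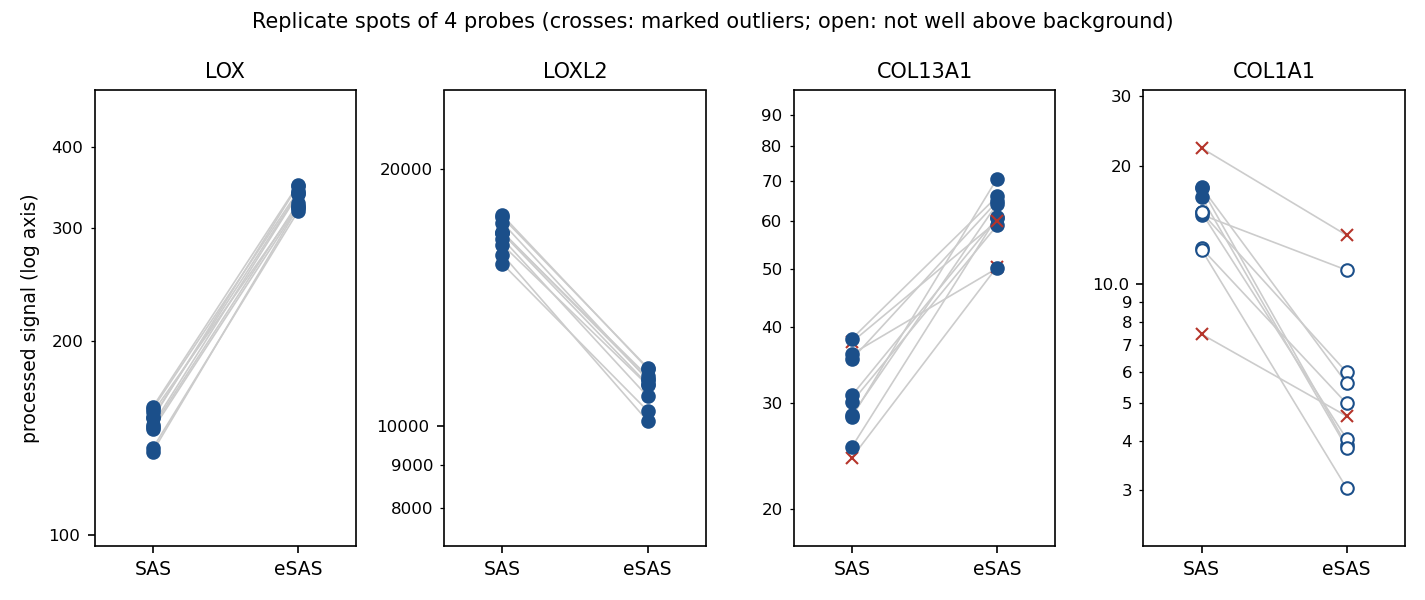
Processed signal (y axis, log scale) of each replicate spot on the SAS and eSAS arrays for the LOX, LOXL2, COL13A1 and COL1A1 probes, with lines joining the same spot position. Open circles are spots not well above background and crosses are spots marked as outliers and left out. All usable LOX and COL13A1 spots are higher in eSAS and all LOXL2 spots are lower, and the COL1A1 spots lie near the limit of detection in SAS and below it in eSAS.

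No hydroxylase probe reached 1.5-fold, where 4.43% of all probes were higher and 6.12% lower, and the 6 measured are too few to set them apart. PLOD1, the main lysyl hydroxylase of the helix, had 630 in SAS and 643 in eSAS (0.082), PLOD2, which hydroxylates the telopeptides, had 6611 and 6529 (0.036), and PLOD3, which also glycosylates hydroxylysine, had 11525 and 13501 (1.22-fold higher, 0.28). P4HA1 had 178 and 185 (0.11), and P4HA2 had 3459 and 3548 (0.091) and 422 and 469 (0.21). P4HA3 was dim on both arrays at both probes. All 6 measured probes of the hydroxylases had ratios above 0, but PLOD2 was -0.018 without scaling, and under normexp with all spots PLOD2 (-0.47), PLOD3 (-0.26) and the brighter P4HA2 probe (-0.23) were below 0.

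The proteins that fold and export procollagen were mostly within 1.5-fold, as were 25438 of all 28439 probes. Over 18 such genes, 26 probes were well above background on both arrays, 0 were at least 2-fold higher or lower, and the median ratio was 0.022. At 1.5-fold, 1 was lower (6.12% of all probes), FKBP10, a prolyl isomerase that acts on procollagen (2557 in SAS and 1598 in eSAS, -0.62). The collagen chaperone SERPINH1 (1751 and 1381, -0.29) and P4HB, the beta subunit of prolyl 4-hydroxylase (13883 and 14102, 0.077; 32792 and 29490, -0.099), were within 1.5-fold. Among the proteases and enhancers that trim procollagen, 11 of 21 probes gave a value. Of these, ADAMTS2, the N-propeptidase, was lower at 1 probe (59.5 in SAS and 28.2 in eSAS, 2.04-fold, -1.03), against 1.97% of all probes. No probe was at least 2-fold higher (1.83% of all probes), and the median of the 9 measured on both arrays was -0.071. At 1.5-fold, PCOLCE2, an enhancer of the C-propeptidase, was higher (377 in SAS and 548 in eSAS, 0.59), against 4.43% of all probes. TLL2 had 474 and 618 (0.44) at the brighter of its probes. ADAMTS2 had a second probe near the limit with a bound of -0.17 and another that was dim on both. BMP1, the C-propeptidase, had ratios between -0.52 and -0.071 at 4 probes.

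Of the receptors for collagen, 17 of 23 probes gave a value, and 0 were at least 2-fold higher or lower (1.83% and 1.97% of all probes). ITGA2, the alpha subunit of the main epithelial collagen integrin, had 893 in SAS and 1141 in eSAS at 1 of its probes (0.41) and 4292 and 4759 at another (0.20), and its partner ITGB1 had ratios between -0.25 and -0.12 at 4 probes. At 1.5-fold, 2 receptor probes were higher (4.43% of all probes), 1 of ITGA2 and 1 of ITGA11, both dim in SAS. The median of the 15 receptor probes measured on both arrays was -0.038.

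Other proteins of the fibril and the basement membrane were measured by 24 probes above background. Of these, 3 were at least 2-fold higher and 0 lower (1.83% and 1.97% of all probes), with a median of -0.060 over the 20 measured on both arrays. The higher ones were LUM, given above, FBLN5, an elastic fibre protein that binds lysyl oxidases (17.4 in SAS and 74.0 in eSAS, 4.40-fold, with -0.38 at its other probe), and TNXB at 1 probe (65.1 and 131, 2.09-fold, with 0.20 and -0.013 at 2 others). Each of the 3 rested on a probe under 100 in SAS. At 1.5-fold, 4 of the 24 probes were higher and 3 lower, against 4.43% and 6.12% of all probes. The lower ones were SPARC, which binds collagens (57106 in SAS and 33880 in eSAS, -0.70), FBLN2 (1261 and 679.5, -0.84) and MATN2 (279 and 151, -0.84). The other MATN2 probe, dim in eSAS, had a nominal bound of -0.44. HSPG2, the basement membrane proteoglycan perlecan (31.3 and 45.5, 0.59), was over 1.5-fold higher. FN1, fibronectin, had ratios of -0.28, -0.22 and -0.22.

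LOX, PLOD2 and P4HA1 are known targets of the hypoxia-inducible factor, and 14 other targets were set beside them. None of their 27 probes was at least 2-fold higher or lower, 0 were at least 1.5-fold higher and 6 were at least 1.5-fold lower (4.43% and 6.12% of all probes), with a median of -0.12. The 6 lower probes were the 4 of PGK1, a glycolytic enzyme (-0.94 to -0.68), and the 2 of NDRG1 (-0.99 and -0.69). CA9 had 101 in SAS and 81.2 in eSAS (-0.26), and VEGFA had ratios from -0.11 to 0.18 at 4 probes.

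The spots around the probes with large ratios were examined on both arrays. Of the member probes at least 1.5-fold apart, 18 were spotted once, and each had at least 3 of its 8 nearest spots well above background on both arrays. The median ratios of these neighbours ran from -0.33 to 0.27, each nearer to 0 than the 1.5-fold limit. Both ends were at COL18A1. The bright probe (-0.99) had -0.33 over 3 neighbours, in the same direction, and the dimmer probe (-0.82) had 0.27, in the opposite direction. Of the 18, 2 lay in rows 459 to 510, the COL4A6 and COL18A1 spots named above. At those of the 18 with a signal of at least 100, the SD of the pixels was at most 0.22 of their mean.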

How the data were processed

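SAS and eSAS RNA was hybridised to 1 Agilent 4x44K array each, both on 1 slide. The authors deposited the output of Agilent Feature Extraction 10.7.3.1, whose intensity values are linear, corrected for background and spatial trends and not scaled between arrays; the scaling behind the study's own fold changes is not given in the sources used here. Their table of values for the series equalled the processed signal at all 45015 spots of each array.

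From there, each processed signal was divided by the 75th percentile of its array and put on the log2 scale, spots of a probe were averaged, and spots marked non-uniform (194 on the SAS and 8 on the eSAS array) or as population outliers (82 and 78) were left out. No spot was saturated. A probe was well above background where over 50% of its spots were (69.4% and 67.5% of spots). A dim signal was replaced by the higher of itself and the lowest signal well above background, 12.8 in SAS and 15.2 in eSAS, after scaling, and no fold is given where this bound was under 1. The number of arrays limits the precision. With 1 array per group there are no residual degrees of freedom, so no test was run.

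Named were member genes at least 1.5-fold apart at a probe, every enzyme, the 5 brightest collagen probes, and genes of the 9 lists at least 2-fold apart. Other members and list genes are named to account for each class, with their values already known. Single results for some list genes are not reported here. The members and lists were chosen with earlier results of these data known. All 78 member probes kept their names under RefSeq (70 by accession). Positions of probes come from the array's own annotation (hg18), and no gene annotation of that build was used here, so exons and UTRs are not given. Promoter sequences are the 250 bases before the most upstream start in RefSeq's table of GRCh38.p14. The alternatives were no scaling, median centring, quantile normalization, normexp with and without spots of marked local background, uncorrected mean pixels, median pixels, the authors' table, both arrays above background, no filter, marked spots kept, the rows with most marked spots left out, genes in place of probes and 1.5-fold. Python 3.11.15, numpy 2.4.6, pandas 2.3.3, matplotlib 3.10.9 and R 4.3.3 with limma 3.58.1 were used, and the counting was tested on simulated data. There only bright probes were changed, by more than the 2-fold limit. Lower bounds, marked spots and changes at faint probes were not covered.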

Additional observations from a re-analysis of the deposited data

How the results depend on the processing

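The reported counts were 4 probes at least 2-fold higher and 4 lower, with a median log2 ratio of -0.027. Median centring, quantile normalization and marked spots kept left both counts at 4, and the rows with most marked spots left out gave 4 and 3. Without scaling, the median was -0.081. The deposited series table holds the unscaled signal and gave the same value. Normexp gave 21 higher and a median of 0.94, where the median of all probes moved to 0.53; without spots of marked local background it gave 0 higher, as the COL13A1, COL15A1 and LOX probes then lay under 2-fold (0.37 to 0.92). Uncorrected mean pixels gave 2 higher and a median of 0.037, and median pixels with normexp, without spots of marked local background, 0 higher and 2 lower. With neither filter nor lower bound, 6 were higher, 7 were lower and the median was 0.091. Per gene, 2 were lower. At 1.5-fold, 8 were higher and 12 lower. The offset of 50 in normexp is added to the corrected signals of both arrays, which by itself shrinks the ratios of faint probes. Signals in SAS and eSAS were 149 and 333 for LOX, 31.6 and 62.1 for the replicated COL13A1 probe, and 3.06 and 68.4 for COL15A1. Their fall under 2-fold without spots of marked local background was therefore partly built into this setting. The share due to the offset and the cause of the other moves were not tested.

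Over up to 14 settings, LOX kept a ratio between 0.92 and 1.89, LOXL2 between -1.05 and -0.50, and COL4A2 between -1.36 and -0.75. The bright COL18A1 probe stayed between -1.04 and -0.94, and the mean of both COL18A1 probes was -0.91. The bright COL4A5 probe stayed between -1.12 and -0.83, and COL7A1 between -0.89 and -0.46. The bright COL5A1 probe ranged from -2.39 to -0.024 and the bright COL4A6 probe from -1.45 to -0.20, both smallest under normexp with all spots. The fainter second probes of COL4A5, COL4A6, COL6A1 and COL18A1 turned positive under normexp with all spots (to 2.21, 1.71, 1.83 and 2.16). No paired analysis was possible because each population has 1 array, and both arrays lie on 1 slide, which therefore could not serve as a block. Dim signal left 26 of 78 probes without a value.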

Other observations

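COL17A1, the membrane collagen of hemidesmosomes, was kept apart from the collagens above. Its signal was 357 in SAS and 63.2 in eSAS (-2.44), and its second probe had 48.1 and 14.2, which was dim in eSAS, with a bound of -1.61. Both probes were thus lower in eSAS. EMID2, the array's name for COL26A1, had 14.6 in SAS, which was dim, and 22.6 in eSAS, with a bound of 0.68. FLJ35880, the array's name for COL6A5, was dim on both arrays. The single spots of FAP (1488 in SAS and 3420 in eSAS) and KRT15 (4077 and 7482) were marked non-uniform on the SAS array, in rows 459 and 488, and gave no ratio.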
